A study of Mus musculus with 10 samples.

Results

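Tubulin isoforms are the alternative gene products from which microtubules are built, and 10 of them were followed in mouse heart muscle cells that had lost Actn2, the gene of alpha-actinin-2. The members were chosen by name as the rows Tuba1a, Tuba1b, Tuba1c, Tuba4a, Tuba8, Tubb2a, Tubb2b, Tubb3, Tubb5 and Tubb6 of a count table of 23337 genes. All 10 were in the table, and 9 passed the filter on low counts, Tubb3 being the exception. RNA came from cardiomyocytes of 5 Actn2-FF mice, the knockout group, and of 5 Actn2-F+ mice, the heterozygote controls, which keep a normal allele. Every animal of both groups had received the virus AAV9-cTNT-Cre, in which a cardiac troponin T promoter drives the recombinase Cre, on postnatal day 1. Cells were released by collagenase perfusion of the heart on postnatal day 14 and sorted by fluorescence, so both groups carry the virus, the floxed allele and the recombinase. The labels do not give the sex of the animals.

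Microtubules are hollow filaments of heterodimers of alpha and beta tubulin. Each family is encoded by several genes, whose proteins are nearly alike in the folded body and differ mainly in the acidic tail at the carboxy terminus. Enzymes modify that tail: tubulin tyrosine ligase adds a terminal tyrosine to alpha tubulin, the vasohibins remove it, and polyglutamylases attach side chains of glutamate. In cardiomyocytes microtubules form a network around the nucleus and between the myofibrils, detyrosinated microtubules are known to bear load and resist contraction, and the network becomes denser in hypertrophy and heart failure. Cells also hold tubulin messenger RNA in check by autoregulation, in which excess free tubulin triggers decay of the messages under translation.

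The ends of the coding sequences show how the isoforms differ where the modifying enzymes act. The last 30 bases before the stop codon are given for 7 isoforms, 5′ to 3′ from the GENCODE M21 transcripts of build GRCm38, with the final codon in capitals.
Tuba1c: gctgaaggagacgatgagggtgaggaaTAT
Tuba4a: tcctatgaggacgaggatgagggagaaGAG
Tuba8: tttgaagaagagaatgagggggaggaaTTT
Tubb2a: ttcgaggaggaggagggtgaagatgagGCT
Tubb2b: ttcgaggaggaagagggcgaggatgagGCT
Tubb3: gacgaggaatcggaagcccaggggcccAAG
Tubb5: gatttcggagaggaggcagaagaggagGCC
Tuba1c ends in TAT, a codon of tyrosine. Tuba4a ends in the glutamate codon GAG and Tuba8 in the phenylalanine codon TTT, so neither encodes a final tyrosine. The beta tubulins end in other codons. At the other end, the first 12 bases of the alpha and beta coding sequences are atgcgtgagTGC in Tuba1c and atgcgcgagATC in Tubb2a, with the last codon of this stretch in capitals. The short start of the nascent protein that this opening encodes is the part recognised in tubulin autoregulation.

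The coding sequences of close copies are almost the same, which limits how reads can be assigned. Tuba1a and Tuba1b were identical at 98.3% of 1356 aligned coding bases, Tuba1b and Tuba1c at 98.4% of 1350, and Tubb2a and Tubb2b at 96.5% of 1338. Tuba1a and Tuba4a shared 85.3% of bases, Tuba4a and Tuba8 82.2%, and Tubb2a and Tubb5 84.8%. Of all windows of 50 bases in the transcript, 75.5% in Tuba1a, 83.1% in Tuba1b and 61.0% in Tuba1c also occurred in a transcript of another gene. The share was 49.6% in Tubb2a and 39.3% in Tubb2b, against 0.115% in Tubb5 and 0% in Tubb6 and Tubb3. In Tuba4a it was 48.8%, almost all of it with Stk16, and in Tuba8 14.7%. Reads that align to several places are left out by the default settings of the counting program. The counts of Tuba1a, Tuba1b, Tuba1c, Tubb2a and Tubb2b therefore rest mainly on their distinct parts and are uncertain as levels, while each gene is counted in the same way in both groups. Tuba4a shares 633 exon bases with Stk16, and reads in that overlap are lost to both genes.

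Total counts per sample ran from 8086656 to 25237696, and heterozygote 1 was the deepest. Actn2 itself, the check of the labels, was at 1145 to 1286 CPM (read counts scaled to library size) in the knockouts and at 2677 to 3474 CPM in the heterozygotes. That is a fold of 0.383, knockout over heterozygote, so its message was lowered but not absent. All 8 cardiomyocyte markers of a list were present, with a summed level of 91169 to 114604 CPM in the heterozygotes and 86756 to 111422 CPM in the knockouts. Endothelial markers were also present. All 12 had a log2 fold change of knockout over heterozygote below 0, 2 of them called lower, and their sum was 582 to 967 CPM in the heterozygotes and 411 to 703 CPM in the knockouts. Markers of proliferating cells, which build mitotic spindles from tubulin, were below 0 in 8 of 8 and summed to 62.0 to 126 CPM against 39.1 to 73.6 CPM. In bulk samples of this kind, fewer cells of a type and less RNA per cell cannot be told apart. Macrophage markers summed to 10.4 to 29.5 CPM in the heterozygotes and 7.19 to 8.39 CPM in the knockouts, without overlap, and all 4 that were tested had a log2 fold change below 0, 1 of them called lower. Neuron and Schwann cell markers summed to at most 19.03 CPM, with all 3 tested below 0 and 1 called lower. In addition 1 cardiomyocyte marker was called lower, and 7 of the 8 had a log2 fold change below 0. For smooth muscle and pericytes 1 marker was called higher, although 6 of 8 were below 0. Of 7 fibroblast markers tested, 4 were below 0 and 0 were called. Their sums overlapped, at 297 to 492 CPM in the heterozygotes and 272 to 594 CPM in the knockouts. The part of these marker lists in the results was not tested. The 4 globin genes of the blood list had 0 counts in every sample.

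Of the 9 isoforms tested, 3 were higher in the knockouts, Tuba1a, Tubb2a and Tubb5, and 0 were lower. A gene was called where its Benjamini-Hochberg adjusted p from the quasi-likelihood test of edgeR was below 0.05. No member was lower at an unadjusted p below 0.05 either (0 genes), nor with DESeq2 (0) or limma's voom (0), and the latter tools each called 3 higher. Over all 11870 genes tested, 18.9% were called, 10.2% higher and 8.64% lower. The median log2 fold change of the 9 members was 0.18, against 0.0023 over all genes tested.

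**Figure D1:**
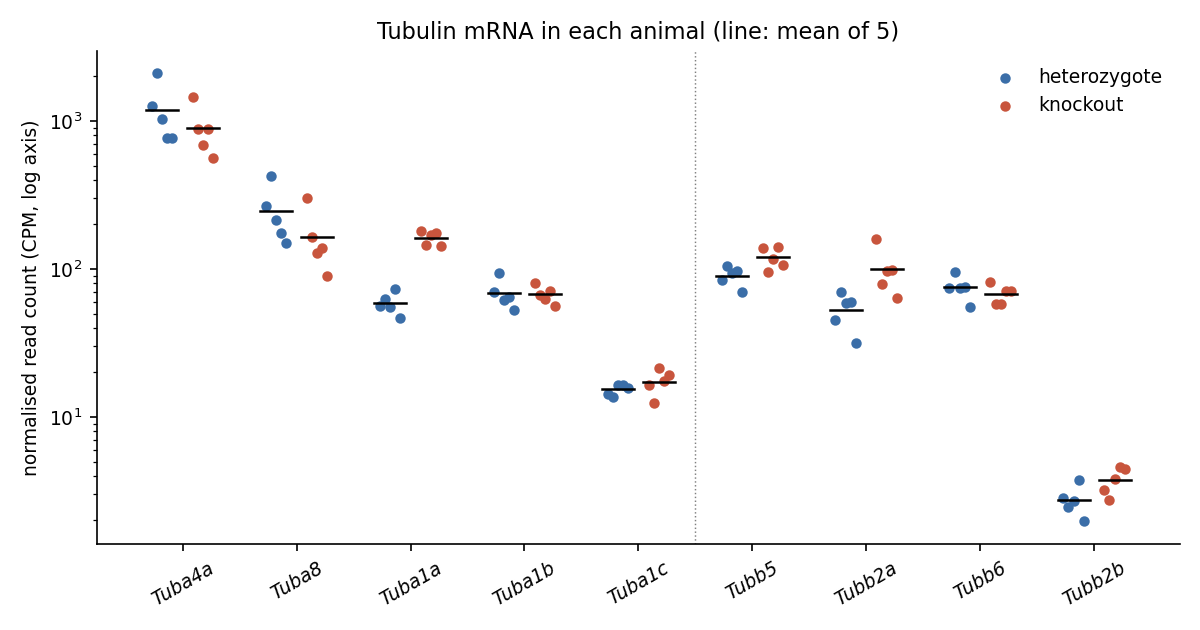
Normalised read counts (CPM, log axis) of 9 tubulin isoforms in each of 5 heterozygotes (blue) and 5 knockouts (red), with alpha tubulins left and beta tubulins right of the dotted line and the group mean as a bar. Tuba1a parted the groups, at 46.4 to 72.7 CPM in the heterozygotes and 142 to 181 CPM in the knockouts, whereas the groups overlapped for the other 8. Tubb3, with 0 to 5 counts per sample, is not drawn.

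Tuba1a, the alpha tubulin known from developing neurons and other immature cells, had the largest change of the family. It lies on the minus strand of chromosome 15 at 98949847 to 98953501 (mm10), with 4 exons. Its level was 55.9, 62.9, 55.1, 72.7 and 46.4 CPM in heterozygotes 1 to 5, and 181, 145, 169, 174 and 142 CPM in knockouts 1 to 5. Every knockout lay above every heterozygote, a separation upward that 8.41% of all tested genes showed, against 6.32% with every knockout below every heterozygote. The means were 58.6 ± 9.80 and 162 ± 17.6 CPM (SD, n = 5), a 2.77-fold rise (log2 fold change 1.47, SE 0.123, edgeR adjusted p 2.62e-06). With the endothelial score in the model the difference was 1.69 on the log2 scale (adjusted p 1.62e-05).

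Tuba1b and Tuba1c, the neighbours in the same cluster, did not pass the test. Tuba1b, a ubiquitous alpha tubulin that lies 15.5 kb from Tuba1a on the same strand (chromosome 15, 98931431 to 98934390), was at 70.1, 94.2, 62.2, 64.8 and 52.4 CPM in the heterozygotes and at 80.7, 67.0, 63.0, 71.1 and 56.4 CPM in the knockouts. These groups overlapped over most of their range (log2 fold change -0.02, SE 0.143, adjusted p 0.933), and the sign of the small difference turned with the scaling. The ratio of Tuba1a to Tuba1b counts within an animal was 0.668 to 1.12 in the heterozygotes and 2.16 to 2.67 in the knockouts, with no overlap. Tuba1c, 76.4 kb on the other side of Tuba1a and on the opposite strand (chromosome 15, 99029891 to 99038105), was at 13.6 to 16.5 CPM in the heterozygotes and 12.5 to 21.3 CPM in the knockouts. Its groups overlapped too, with a log2 fold change of 0.18 (SE 0.144, adjusted p 0.433).

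The promoters of the 3 genes that rose and of Tuba1b are shown to set the unlike neighbours side by side. Each run covers 250 bases before to 50 after the start in RefSeq, build GRCm38.p6, on the strand of the gene. Capitals mark CCAAT and GGGCGG or their reverse complements.
Tuba1a (chr15:98953452-98953751, minus strand): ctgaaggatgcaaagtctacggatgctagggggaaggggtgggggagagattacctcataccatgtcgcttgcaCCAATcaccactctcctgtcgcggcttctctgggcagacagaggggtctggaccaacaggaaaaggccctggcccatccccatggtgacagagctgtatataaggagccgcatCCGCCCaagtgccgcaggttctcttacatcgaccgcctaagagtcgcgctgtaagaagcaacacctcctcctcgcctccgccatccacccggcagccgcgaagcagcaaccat
Tuba1b (chr15:98934341-98934640, minus strand): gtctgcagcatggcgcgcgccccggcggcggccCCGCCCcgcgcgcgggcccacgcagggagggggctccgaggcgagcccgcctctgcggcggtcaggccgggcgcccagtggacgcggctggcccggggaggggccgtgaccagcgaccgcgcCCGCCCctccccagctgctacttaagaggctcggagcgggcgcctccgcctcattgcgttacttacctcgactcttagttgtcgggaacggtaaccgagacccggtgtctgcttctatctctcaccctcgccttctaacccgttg
Tubb2a (chr13:34077959-34078258, minus strand): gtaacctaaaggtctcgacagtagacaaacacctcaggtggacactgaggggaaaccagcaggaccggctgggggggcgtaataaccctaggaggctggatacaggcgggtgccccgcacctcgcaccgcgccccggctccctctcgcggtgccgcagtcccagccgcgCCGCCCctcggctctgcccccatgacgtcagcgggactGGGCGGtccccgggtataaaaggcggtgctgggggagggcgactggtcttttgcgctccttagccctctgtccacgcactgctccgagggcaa
Tubb5 (chr17:35838252-35838551, minus strand): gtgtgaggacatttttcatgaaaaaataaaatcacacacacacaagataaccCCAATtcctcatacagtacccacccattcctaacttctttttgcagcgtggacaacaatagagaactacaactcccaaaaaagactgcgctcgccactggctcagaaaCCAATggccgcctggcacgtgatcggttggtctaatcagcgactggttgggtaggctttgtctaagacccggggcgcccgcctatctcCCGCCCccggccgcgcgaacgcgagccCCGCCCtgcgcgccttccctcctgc
Of the 10 members, 8 were searched, since Tubb2b had no entry and Tubb6 was left out. CCAAT, searched on both strands, occurred 1 time in Tuba1a and 2 times in Tubb5, and in neither Tuba1b nor Tubb2a. It also occurred 1 time in Tuba1c and 5 times in Tubb4b, neither of which was called, and 1 time in the untested Tubb3. Tuba4a and Tuba8 lacked it, and 37.4% of all 32851 promoters of this length held it. GGGCGG occurred in all 4 promoters shown, against 35.7% of all promoters. It also occurred in Tuba4a and Tubb4b, neither of which was called, and in the untested Tubb3. Tuba1c and Tuba8 lacked it. TATAAA occurred in Tubb2a, 29 bases before the start, in Tubb4b, downstream of the start, and in 13.6% of all promoters. No CArG box (1.63% of all promoters) and no MEF2 site (3.19%) was found in these 8 windows. The motifs overlap none of one another in these 4 sequences, and a match is a description of the letters only.

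Tuba4a and Tuba8 are the alpha tubulins typical of striated muscle, and together they made up most of the alpha tubulin counts, also per length. Tuba4a (chromosome 1, 75214974 to 75219253, minus strand) was at 1267, 2105, 1026, 768 and 767 CPM in heterozygotes 1 to 5 and at 1444, 879, 691, 886 and 565 CPM in knockouts 1 to 5. Tuba8 (chromosome 6, 121210770 to 121226097, plus strand) was at 268, 427, 213, 174 and 150 CPM in the heterozygotes and at 304, 164, 128, 139 and 89.6 CPM in the knockouts. In both genes heterozygote 2 was the highest of all 10 animals, knockout 1 the second and knockout 5 the lowest, and the groups overlapped. The log2 fold changes were -0.41 (SE 0.282, adjusted p 0.345) for Tuba4a and -0.58 (SE 0.313, adjusted p 0.219) for Tuba8. Single animals bear on both values. Without heterozygote 2 they were -0.10 and -0.29, and without knockout 1 they were -0.65 and -0.92, where Tuba8 then passed the threshold (adjusted p 0.0349).

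Tubb2a, a beta tubulin best known from neurons, had the second largest rise of the family. It lies on chromosome 13 at 34074280 to 34078008 on the minus strand, 21.7 Mb from Actn2. It was at 45.2, 70.0, 58.8, 59.6 and 31.4 CPM in heterozygotes 1 to 5 and at 158, 79.1, 97.5, 98.1 and 63.3 CPM in knockouts 1 to 5. Knockout 1 stood highest, and knockout 5 lay within the heterozygote range. The means were 53.0 ± 14.95 and 99.3 ± 36.1 CPM (SD, n = 5), a 1.87-fold rise (log2 fold change 0.91, SE 0.236, edgeR adjusted p 0.0153). Whichever of the 10 animals was removed, Tubb2a was called, with log2 fold changes of 0.68 to 1.03. Its neighbour Tubb2b (chromosome 13, 34127008 to 34130354), 49.0 kb away on the same strand, was scarce, with 20 to 79 counts per sample. Tubb2b was at 1.97 to 3.77 CPM in the heterozygotes and 2.75 to 4.62 CPM in the knockouts, and did not pass (log2 fold change 0.46, SE 0.238, adjusted p 0.204).

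Tubb5, the beta tubulin of most cell types (chromosome 17, 35833920 to 35838301, minus strand), rose least of the 3. It was at 83.7, 105, 94.5, 96.5 and 70.2 CPM in the heterozygotes and at 139, 95.5, 118, 141 and 106 CPM in the knockouts. Knockout 2 lay within the heterozygote range, and the other 4 knockouts lay above it. The means were 89.9 ± 13.4 and 120 ± 20.1 CPM (SD, n = 5), a 1.33-fold rise (log2 fold change 0.41, SE 0.132, edgeR adjusted p 0.0417). That call is close to the threshold. It was lost without heterozygote 1 (adjusted p 0.0854), 3 (0.0538) or 5 (0.0911), without knockout 1 (0.0967), 3 (0.0740) or 4 (0.101), and with upper-quartile scaling (0.0529), and it was kept with the endothelial score in the model (0.61 on the log2 scale, adjusted p 0.0304).

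Tubb6, a beta tubulin that is known to be induced in regenerating muscle, was at 74.8, 95.2, 74.5, 76.0 and 55.7 CPM in the heterozygotes and at 82.2, 58.4, 58.3, 71.0 and 71.0 CPM in the knockouts. The groups overlapped (log2 fold change -0.14, SE 0.136, adjusted p 0.516). Tubb3, the neuronal beta tubulin (chromosome 8, 123411564 to 123422010), had 3, 0, 1, 1 and 0 counts in the heterozygotes and 5, 1, 1, 2 and 2 in the knockouts. It was not tested. A count of 0 allows up to 0.347 CPM in heterozygote 2 and 0.291 CPM in heterozygote 5, before scaling, a limit that covers counting error only.

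**Figure D2:**
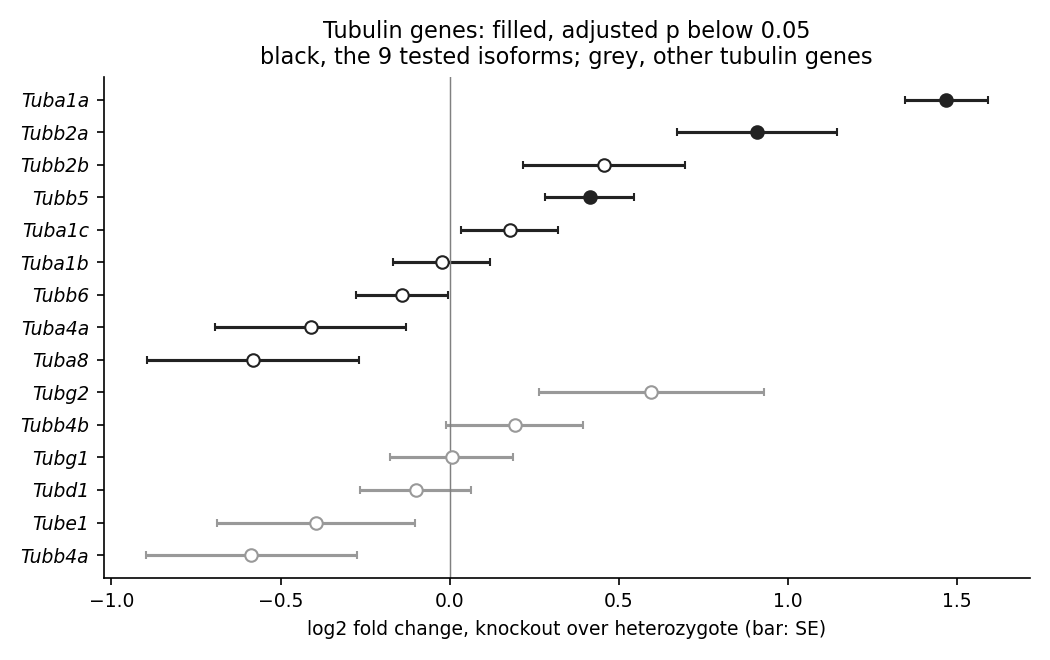
Log2 fold changes of knockout over heterozygote with their SE for the 9 tested isoforms (black) and 6 other tubulin genes (grey), where filled points have an edgeR adjusted p below 0.05. Tuba1a at 1.47, Tubb2a at 0.91 and Tubb5 at 0.41 are the filled points, and the muscle isoforms Tuba4a and Tuba8 lie at -0.41 and -0.58 with the widest bars of the isoforms.

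Among the 10 other tubulin genes, 6 were tested and 0 were called with edgeR. At an unadjusted p below 0.05 there were also 0, as with DESeq2 (0) and limma's voom (0). Tubb4b, a beta tubulin of many tissues (chromosome 2, 25222158 to 25224702), was at 178.1 ± 49.7 CPM in the heterozygotes and 204 ± 58.9 CPM in the knockouts (SD, n = 5; log2 fold change 0.19, adjusted p 0.562). Tubg1, the gamma tubulin that nucleates microtubules, was at 50.3 ± 15.1 and 50.6 ± 9.83 CPM (adjusted p 0.985). Its paralog Tubg2 was at 1.85 and 2.77 CPM, the delta tubulin Tubd1 at 10.0 and 9.40 CPM, the epsilon tubulin Tube1 at 1.91 and 1.42 CPM, and Tubb4a at 2.17 and 1.42 CPM, with the heterozygote mean first. Tuba3a and Tubal3 had 0 counts in every sample, Tubb1 at most 3, and Tuba3b at most 11.

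Levels of different genes were compared as CPM per kilobase of exon. In the heterozygotes the order was Tuba4a at 578 ± 270, Tuba8 at 172 ± 77.0, Tuba1b at 44.0 ± 9.99, Tubb6 at 43.1 ± 8.01, Tuba1a at 36.8 ± 6.16, Tubb5 at 34.002 ± 5.06 and Tubb2a at 33.0 ± 9.32 CPM per kb (SD, n = 5). The ranges across animals of the 5 genes from Tuba1b to Tubb2a overlapped. Within every heterozygote, however, Tuba1b lay above Tubb2a and Tubb6 above Tubb5. Tuba1c followed at 7.77 and Tubb2b at 1.43. In the knockouts Tuba1a had moved up to 102 ± 11.1 CPM per kb, next to Tuba8 at 115 ± 57.4 and above Tubb2a at 61.9 ± 22.5. Within animals, Tuba1a lay below Tuba8 in knockouts 1 and 2 and above it in knockouts 3, 4 and 5. Tubb5 at 45.3 ± 7.61, Tuba1b at 43.3 ± 5.82 and Tubb6 at 39.1 ± 5.77 overlapped across animals, and their order varied between animals. With 111 ± 31.1 and 127 ± 36.8 CPM per kb, Tubb4b had the highest such value of the beta tubulins in both groups. The exon lengths were not corrected for sequence shared between genes. Genes with much shared sequence, such as Tuba1a, Tuba1b, Tuba1c and Tubb2a, may therefore be understated in this order. The shared part of Tubb4b was not determined.

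Tuba1a took a larger share of the alpha tubulin counts per kb in every knockout than in any heterozygote. Its share of the summed alpha members, per length, was 4.90% ± 1.85 in the heterozygotes (2.76 to 7.73%) and 15.3% ± 3.50 in the knockouts (10.4 to 18.9%), with no overlap (SD, n = 5). Tuba4a held 68.1% ± 3.07 and 61.1% ± 3.002, and Tuba8 20.4% ± 0.752 and 15.8% ± 2.48, heterozygote first. Tuba1a, Tuba1b and Tuba1c together held 11.5% ± 3.28 in the heterozygotes and 23.1% ± 5.08 in the knockouts, with ranges that touch at 16.2% in a heterozygote and 15.95% in a knockout. Among the beta members, Tubb2a held 29.1% ± 3.09 and 40.9% ± 6.23, without overlap, and Tubb6 38.8% ± 2.12 and 26.8% ± 3.99, also without overlap. Tubb5 held 30.7% ± 1.81 and 30.9% ± 2.92. With Tubb4b added to the beta sum, Tubb2a held 14.7% ± 1.65 and 22.0% ± 2.70 and the groups still did not overlap, whereas those of Tubb6 did (19.5% ± 1.11 and 14.6% ± 2.61). Shares are ratios, so a rise of one member lowers the others. Reads in sequence shared between genes are not counted, and the lengths were not corrected for it. These shares, and sums over the members, are therefore uncertain as levels of message.

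Summed over the members, the alpha message was 839 ± 357 CPM per kb in the heterozygotes and 704 ± 233 in the knockouts, and the beta message with Tubb4b was 223 ± 52.2 and 276 ± 69.4 (SD, n = 5). The ratio of alpha to beta was 2.64 to 4.79 in the heterozygotes and 2.19 to 3.03 in the knockouts, so the groups overlapped.

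**Figure D3:**
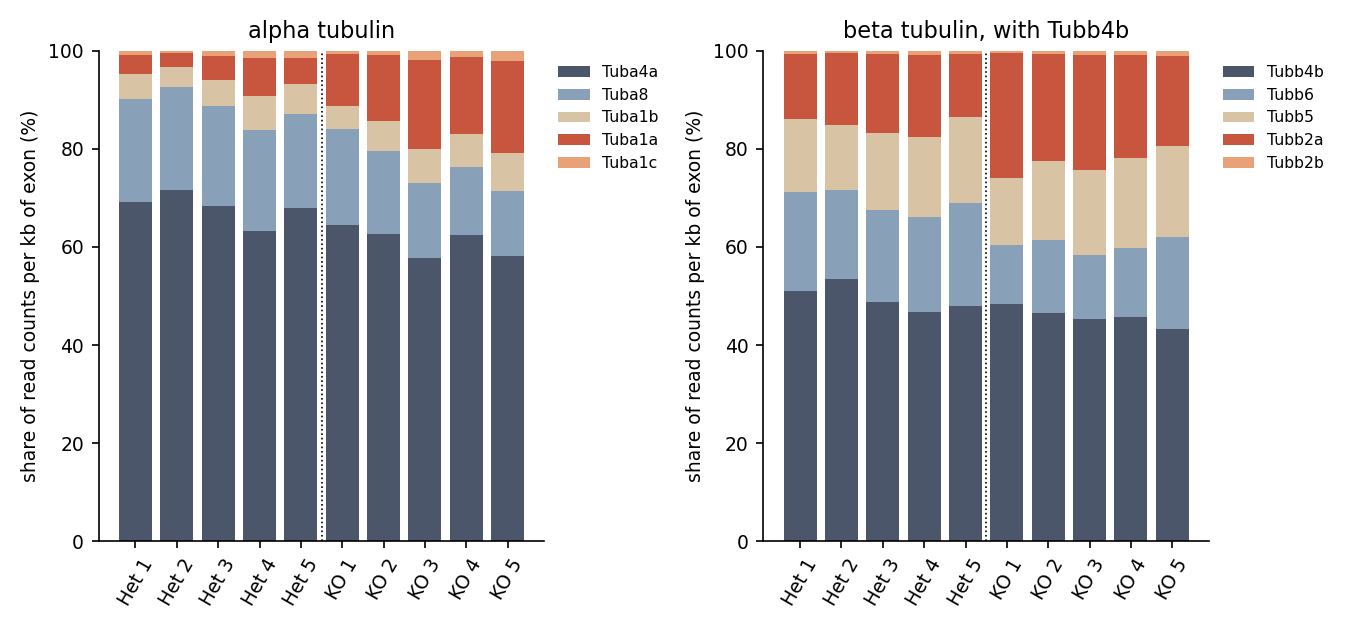
Share of read counts per kilobase of exon (%) taken by each isoform in each animal, for the 5 alpha members (left) and for 4 beta members with Tubb4b (right), heterozygotes before and knockouts after the dotted line. Tuba1a takes 2.76 to 7.73% of alpha tubulin in the heterozygotes and 10.4 to 18.9% in the knockouts, while Tuba4a is the largest part in every animal. Tubb3 is too scarce to be seen and is not drawn.

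Animals of a group also differed from one another in several isoforms at once. Knockout 1 was the highest or second highest of the 10 animals in 7 of the 9 tested members, and heterozygote 2 was the highest in 4 (Tuba1b, Tuba4a, Tuba8 and Tubb6). Heterozygote 5 was the lowest in 6 (Tuba1a, Tuba1b, Tubb2a, Tubb2b, Tubb5 and Tubb6). What sets these animals apart was not tested.

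The enzymes that modify tubulin changed in both directions. Of 19 tested genes on that list, 5 were higher and 2 lower (36.8% called, against 18.9% of all genes), and the median log2 fold change was 0.19. Ttll7, a polyglutamylase that acts mainly on beta tubulin, was at 2.27, 2.09, 3.08, 2.66 and 1.48 CPM in the heterozygotes and at 11.04, 10.01, 16.7, 8.31 and 10.8 CPM in the knockouts, a 4.93-fold rise (log2 fold change 2.30, SE 0.236, edgeR adjusted p 1.69e-05). Ttll1, the catalytic subunit of a polyglutamylase complex that acts mainly on alpha tubulin, was at 57.7 ± 5.14 CPM in the heterozygotes and fell to 27.7 ± 2.55 CPM, a log2 fold change of -1.06 (SE 0.0975, adjusted p 6.97e-06). Agtpbp1, a carboxypeptidase that trims polyglutamate chains, fell from 66.3 ± 4.73 to 38.0 ± 5.57 CPM (adjusted p 0.000164). None of these 3 genes overlapped between the groups, a separation that 8.41% of all tested genes showed upward and 6.32% downward.

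The tyrosine cycle and acetylation were also represented. Vash2, a vasohibin that removes the final tyrosine, was at 2.18, 1.60, 2.82, 3.22 and 2.75 CPM in the heterozygotes. In the knockouts it was at 6.14, 7.41, 8.98, 6.16 and 12.8 CPM, a 3.34-fold rise (log2 fold change 1.74, SE 0.257, edgeR adjusted p 0.000333). The groups did not overlap for Vash2, as for 8.41% of all tested genes upward. Its paralog Vash1 (3.88 ± 1.67 and 4.99 ± 1.55 CPM, adjusted p 0.416), their partner Svbp, listed as Ccdc23 (25.9 ± 3.62 and 25.5 ± 4.61 CPM, adjusted p 0.942), and the ligase Ttl, which restores the tyrosine (10.2 ± 2.42 and 8.87 ± 1.17 CPM, adjusted p 0.483), did not pass. Atat1, the acetyltransferase of alpha tubulin, rose from 18.1 ± 2.43 to 26.4 ± 2.73 CPM (adjusted p 0.00616), and the deacetylase Hdac6 from 40.8 ± 1.09 to 54.7 ± 5.66 CPM (adjusted p 0.00435). With the endothelial score in the model neither was called, with log2 fold changes of 0.48 for Atat1 (adjusted p 0.0809), against 0.54 without the score, and 0.41 for Hdac6 (0.0508), against 0.43.

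Genes of microtubule-associated proteins and plus-end proteins were called mostly upward, 13 higher and 2 lower of 38 tested (39.5% called, against 18.9% of all genes, of which 10.2% higher and 8.64% lower, and a median log2 fold change of 0.28). Map4, listed as Mtap4, the main such protein of muscle, was at 298 ± 25.4 CPM in the heterozygotes and rose to 483 ± 34.4 CPM (edgeR adjusted p 9.65e-05), a log2 fold change of 0.70 with an SE of 0.0885. Map1a (Mtap1a), Map9 (Mtap9) and the tau gene Mapt had the largest rises among the called genes of the list, with log2 fold changes of 1.44, 0.88 and 0.86 (adjusted p 5.51e-05, 0.00731 and 0.000273). The 2 genes that fell were Tppp3, from 19.3 ± 3.55 to 6.59 ± 2.38 CPM, and Tppp, from 42.3 ± 3.88 to 22.0 ± 4.42 CPM, both named for promoting tubulin polymerisation (adjusted p 0.000228 and 0.000252). Mapre1, the plus-end protein EB1, was at 147 ± 10.5 and 178.5 ± 11.3 CPM (adjusted p 0.0361). That call ended in 7 of the 10 leave-one-out fits, those without heterozygote 1, 3 or 5 or knockout 2, 3, 4 or 5 (adjusted p up to 0.0932). It was also lost with upper-quartile scaling (edgeR adjusted p 0.0564) and with the replicate number as a block (0.0613). Mapre3 (24.0 ± 2.14 and 25.3 ± 4.48 CPM, adjusted p 0.728) and the tubulin-sequestering Stmn1 (14.4 ± 2.57 and 10.7 ± 3.63 CPM, adjusted p 0.201) did not pass.

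Of 25 tested genes for the folding and autoregulation of tubulin, 1 was higher and 0 lower (4% called, against 18.9% of all genes), and at an unadjusted p below 0.05 the edgeR counts were 2 and 0. DESeq2 and limma's voom each called 2 higher and 0 lower. The gene called was Tbcd, a cofactor that assembles the tubulin dimer, at 16.8 ± 0.940 and 25.6 ± 2.85 CPM (log2 fold change 0.61, adjusted p 0.00154). Ttc5, which recognises nascent tubulin in autoregulation, was at 28.4 ± 5.47 and 31.3 ± 1.55 CPM (adjusted p 0.463). Of 32 tested genes of nucleation and severing, 2 were higher and 0 lower (6.25% called, against the same 18.9%). At an unadjusted p below 0.05 there were 7 higher and 1 lower, and DESeq2 called 3 and 0 and limma's voom 2 and 0. The 2 were Haus8, a subunit of the augmin complex that branches microtubules (log2 fold change 0.74, adjusted p 0.00115), and Pde4dip, or myomegalin, at 1843 ± 290 and 2511 ± 244 CPM (log2 fold change 0.45, adjusted p 0.0132). The count was 5 with scaling by library totals and 4 without knockout 5. With the endothelial score in the model Pde4dip was not called, at a log2 fold change of 0.35 (adjusted p 0.178).

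Of 41 tested genes of kinesin and dynein motors, 9 were higher and 2 lower (26.8% called, against 18.9% of all genes, and a median log2 fold change of 0.16). Kif5c, Kif3c and the dynein adaptor gene Bicd1 had the largest rises among the called genes, with log2 fold changes of 1.34, 1.19 and 0.92 (adjusted p 0.00966, 0.00140 and 0.00219). Kif5b, the widespread heavy chain of kinesin-1, rose from 193 ± 21.7 to 255 ± 29.9 CPM (adjusted p 0.0160), although not without knockout 3 (0.0503). The motor gene Kifc2 (12.5 ± 2.56 and 8.45 ± 1.53 CPM, adjusted p 0.0371) and the dynein regulator Nde1 (48.4 ± 8.71 and 37.5 ± 3.86 CPM, adjusted p 0.0483) passed downward. The call of Kifc2 was lost without heterozygote 1 or 2 or knockout 1, 2, 3 or 4 (adjusted p up to 0.0935). That of Nde1 was lost without heterozygote 1, 2 or 5 or knockout 2, 3, 4 or 5 (up to 0.111). Scaling by library totals also ended both calls (edgeR adjusted p 0.0654 for Kifc2 and 0.0880 for Nde1), and leaving out the filter ended that of Nde1 (0.0624). The count for this list was 7 without knockout 3. With the endothelial score in the model, 4 motor genes of those named were not called. These were Kif5c at a log2 fold change of 1.12 (adjusted p 0.131, against 1.34 without the score), Kif5b at 0.40 (0.118, against 0.41), Kifc2 at -0.73 (0.0575, against -0.55) and Nde1 at -0.48 (0.0797, against -0.37). Of the genes of microtubule-associated and plus-end proteins named above, neither Mtap9 at 0.90 (0.0577, against 0.88) nor Mapre1 at 0.32 (0.116, against 0.28) was called. In that fit the 36 calls over the 5 lists were 20, and the 2241 calls over all genes were 1117. The part of the endothelial markers in these results was not tested further.

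**Figure D4:**
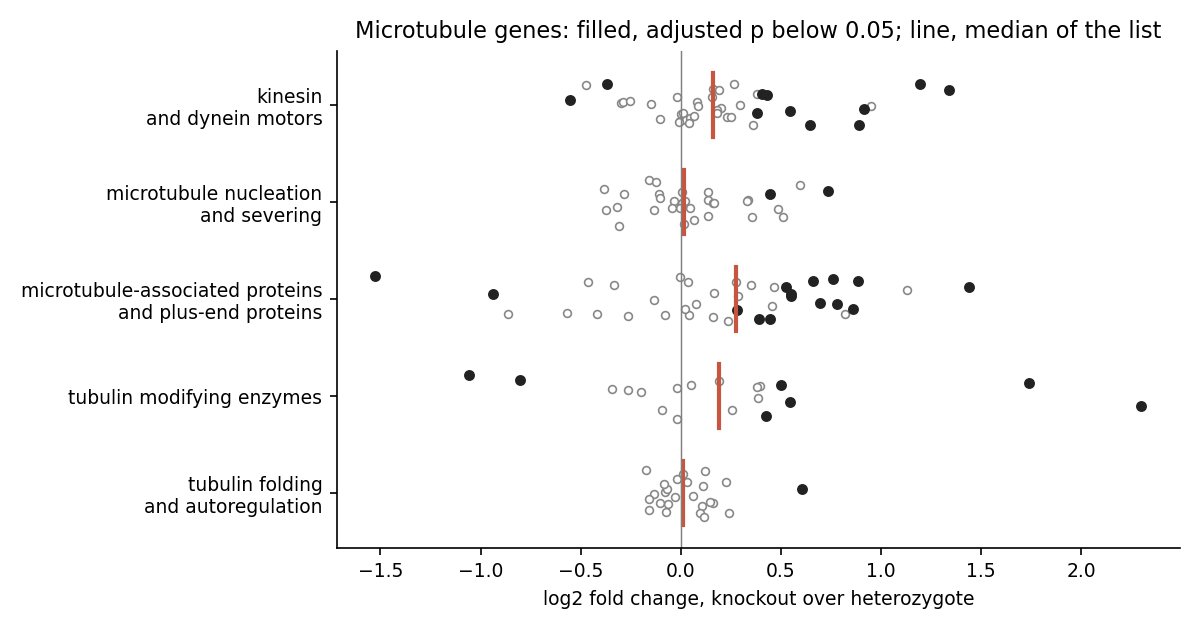
Log2 fold changes of knockout over heterozygote for the tested genes of 5 microtubule lists, 1 point per gene, filled where the edgeR adjusted p was below 0.05, with the median of each list as a red line. The medians were 0.28 for microtubule-associated and plus-end proteins and 0.0094 for folding genes, and the points farthest right are Ttll7 at 2.30 and Vash2 at 1.74.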

How the data were processed

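RNA was sequenced from sorted cardiomyocytes of 10 mice, 5 per genotype, with SMART-Seq and Nextera XT libraries. The authors deposited whole-number read counts per gene without normalisation, made per the file headers with featureCounts 1.5.1 at its default options against the UCSC mm10 annotation of a 2012 archive. By default this program ignores strand and drops multi-mapping reads. The submitters' processing notes name STAR 2.5.3a, Subread 1.5.2 and CASAVA 1.8. The same deposited file gives the exonic length of each gene in bases. Of 14 count columns, 4 match no sample here and were not used.

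Genes were filtered with edgeR 4.0.16 (filterByExpr, minimum count 10, minimum total 15), scaled with TMM and compared with the quasi-likelihood F test in R 4.3.3, over all 10 samples without covariates. Adjusted p-values are Benjamini-Hochberg values over 11870 genes, with calls below 0.05. The standard error is the log2 fold change divided by the square root of F. The labels do not say which animals share a litter or batch. The procedure was tested on simulated data. Alternatives were other scalings and filters, DESeq2 1.42.0, voom in limma 3.58.1, the replicate number as a block, an endothelial marker score as a covariate, and leaving out each animal.

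The members, the gene lists and the alternatives were chosen with earlier results of these data known. Named genes were the members, the other tubulin genes, 13 genes fixed by name, and in each list the 3 largest rises and falls among calls with a mean of at least 1 CPM. Sequences come from GENCODE M21 and RefSeq, and coding pairs were aligned with Biopython 1.88. No protein sequences were used here. The coding ends of Tuba1a and Tuba1b are not reported here.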

Additional observations from a re-analysis of the deposited data

Results flagged for a closer look

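In 112 groups of 5 values (a named gene, a share or a total in 1 genotype), 3 held a sample set apart from its nearest neighbour by more than 0.71 of the range, where about 6 would by chance. None of them was a tubulin isoform. The total of heterozygote 1 was 25237696 counts, and the second deepest of its group, heterozygote 5, had 10309615, a gap of 0.870 of the range. Hdac6 was lowest in heterozygote 1, at 5.28 log2 CPM against 5.36 in the next (gap 0.724). Kifc2 was highest in heterozygote 2, at 4.10 log2 CPM against 3.57 (gap 0.866).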

How the results depend on the processing

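Of 170 combinations of a tested isoform and an alternative, 155 changed neither in sign nor in call, 7 lost the call (all Tubb5), 2 gained it (both Tuba8) and 6 turned in sign (all Tuba1b). Tuba1a and Tubb2a were called under every alternative run, with log2 fold changes of 1.40 to 1.69 and 0.68 to 1.25. The sign of Tuba1b turned with library totals (0.0589), voom (0.08) and the endothelial score (0.0610), and ran from -0.11 to 0.12 when single animals were left out. Among the other genes, Tubg1 turned with RLE (-0.0056), upper-quartile scaling (-0.0207), DESeq2 (-0.0042) and the endothelial score (-0.0469), and ran from -0.11 to 0.18 without single animals. Tubd1 turned with that score (0.10), and Svbp (Ccdc23) with library totals (0.0560) and voom (0.0019). With single animals left out, Mapre3 ran from -0.0076 to 0.157 and Svbp from -0.0848 to 0.0801, and the share differences ran from -0.0579 to 0.207 points for Tubb2b and from -0.600 to 1.28 points for Tubb5. The endothelial score moved the calls over all genes to 1117 and those of the 5 lists to 20. Scaling by library totals shifted all genes by 0.084 on the log2 scale (1684 higher and 760 lower, against 1216 and 1025). The deviations of same-numbered animals correlated at 0.112, -0.0124, -0.0604, 0.185 and 0.141 for numbers 1 to 5, and only numbers 4 and 5 matched their own number best, so the animals were not treated as paired. With the replicate block, 2182 genes and 4 isoforms were called, Tuba8 among them (adjusted p 0.0350). Tubb3, at 0 to 5 counts per sample, did not pass the filter and was left untested, and Tubb2b was at 20 to 79 counts.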
